A study of Mus musculus with 8 samples.

Results

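Glycolysis, glycogen turnover and glucose transport were described here through 38 genes, taken as a list: hexokinases, the enzymes from glucose phosphate to pyruvate, lactate dehydrogenases, lactate and glucose carriers, the enzymes that break down and build glycogen, the bifunctional enzymes that set fructose bisphosphate levels, and cytosolic glycerol phosphate dehydrogenase. Their probes were the non-control probes whose identifier in the array files is a RefSeq transcript of one of these genes. All 38 genes were found, of 22911 genes named on the array, and they were read by 63 of its 56605 probes.

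RNA came from thigh muscle of 6 male mice aged 17 months, 3 of them Grsf1cKO and 3 WT, and was hybridized to 8 one-color Agilent arrays, since WT 1 and Grsf1cKO 1 were each hybridized again. Grsf1cKO mice descend from the Grsf1tm1a allele, which was freed of its LacZ and Neo cassettes with FLPo. In the resulting Grsf1-LoxP allele exons IV and V are floxed. They are removed by Myf5Cre, a Cre active in muscle precursors. The paper calls the knockout specific to skeletal muscle. Which cells within the muscle keep the gene was not tested here. Whether WT mice carried the floxed allele or the Cre is not given in the sources used here. The sample labels name the muscle as vastus intermedius and the paper as rectus femoris, both parts of the quadriceps.

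Muscle takes up glucose mainly through the carrier GLUT4, which insulin and contraction bring to the cell surface, and traps it by phosphorylation with hexokinase. Glucose phosphate is then either stored as glycogen or passed down glycolysis to pyruvate and lactate, and fast fibers rely on this route for short, intense work. Many steps have a muscle isoform beside a form found in most tissues, and phosphorylase kinase links glycogen breakdown to the calcium that triggers contraction.

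Values are log2 processed signals after quantile normalization, averaged over the arrays of a mouse, and each difference is Grsf1cKO minus WT for the brightest probe of a gene unless another probe is named. Signals of different probes are not comparable with each other, so only differences between mice were compared between genes.  *Grsf1*, the targeted gene, was 12.15, 12.02 and 12.08 in Grsf1cKO 1 to 3 and 14.30, 14.25 and 14.27 in WT 1 to 3. It was lower by 4.57-fold in Grsf1cKO mice (log2 difference -2.19, SE 0.0811, limma adjusted *p* = 0.00328), and the genotype labels of all 6 mice fit this. Whether its probe lies in the floxed exons was not determined here. The 10 genes that define skeletal muscle, among them *Acta1*, *Ckm* and *Ttn*, were well above background in all 6 mice.

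All 38 genes were well above background, by the flag of the scanner software, in all 6 mice, so the detection filter removed none. A probe counted as changed if it differed more than 1.5-fold, with a limma *p* value below 0.01 before adjustment and, over all probes tested, a false discovery rate (Benjamini-Hochberg) below 0.2. None of the 63 probes of these genes met these criteria, beside 3 of the 38886 probes tested (0.00771%). At an unadjusted limma *p* under 0.05 there were also 0 of 38 genes, while 2.96% of all probes tested were lower in Grsf1cKO mice and 1.29% higher at that level. The *z*-test of the study's methods also put 0 of the 63 probes past the criteria, and gave 3 genes, *Slc16a1*, *Slc16a3* and *Pfkfb1*, an unadjusted value under 0.05. As run here, with the criteria above in place of the selection steps of those methods, which were not rebuilt, that test put 379 probes of the whole array past the criteria and 10.8% of all probes under 0.05, against 3 and 4.25% by limma. The lowest adjusted value among the 38 genes was 0.996 by limma and 0.0347, for *Pfkfb1*, by the *z*-test. Without Grsf1cKO 1 the count under 0.05 was 2 (*Slc2a4* and *Ppp1r3a*), without WT 3 it was also 2 (*Slc16a1* and *Ugp2*), and without any other single mouse it was 0.

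The differences were small, and their intervals limit how large they can have been. They ran from -0.29 to 0.16 on the log2 scale, and 0 of 38 exceeded 1.5-fold, beside 1606 of the 38886 probes tested. The 95% interval of limma lay within 1.5-fold in both directions for 34 of 38 genes and within 1 log2 unit for all 38, beside 24463 and 33363 of the 38886 probes tested. The 34 genes include *Aldoa*, whose values quantile normalization could not resolve, so its interval there sets no limit. Its interval after 75th percentile scaling, -0.44 to 0.14, also lay within 1.5-fold. The median difference was -0.02 after quantile normalization, -0.10 after scaling to the 75th percentile and 0.03 in the deposited *z*-scores, so the sign of the median depends on the scaling. Over all probes tested these medians were -0.03, 0.02 and -0.05.

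**Figure D1:**
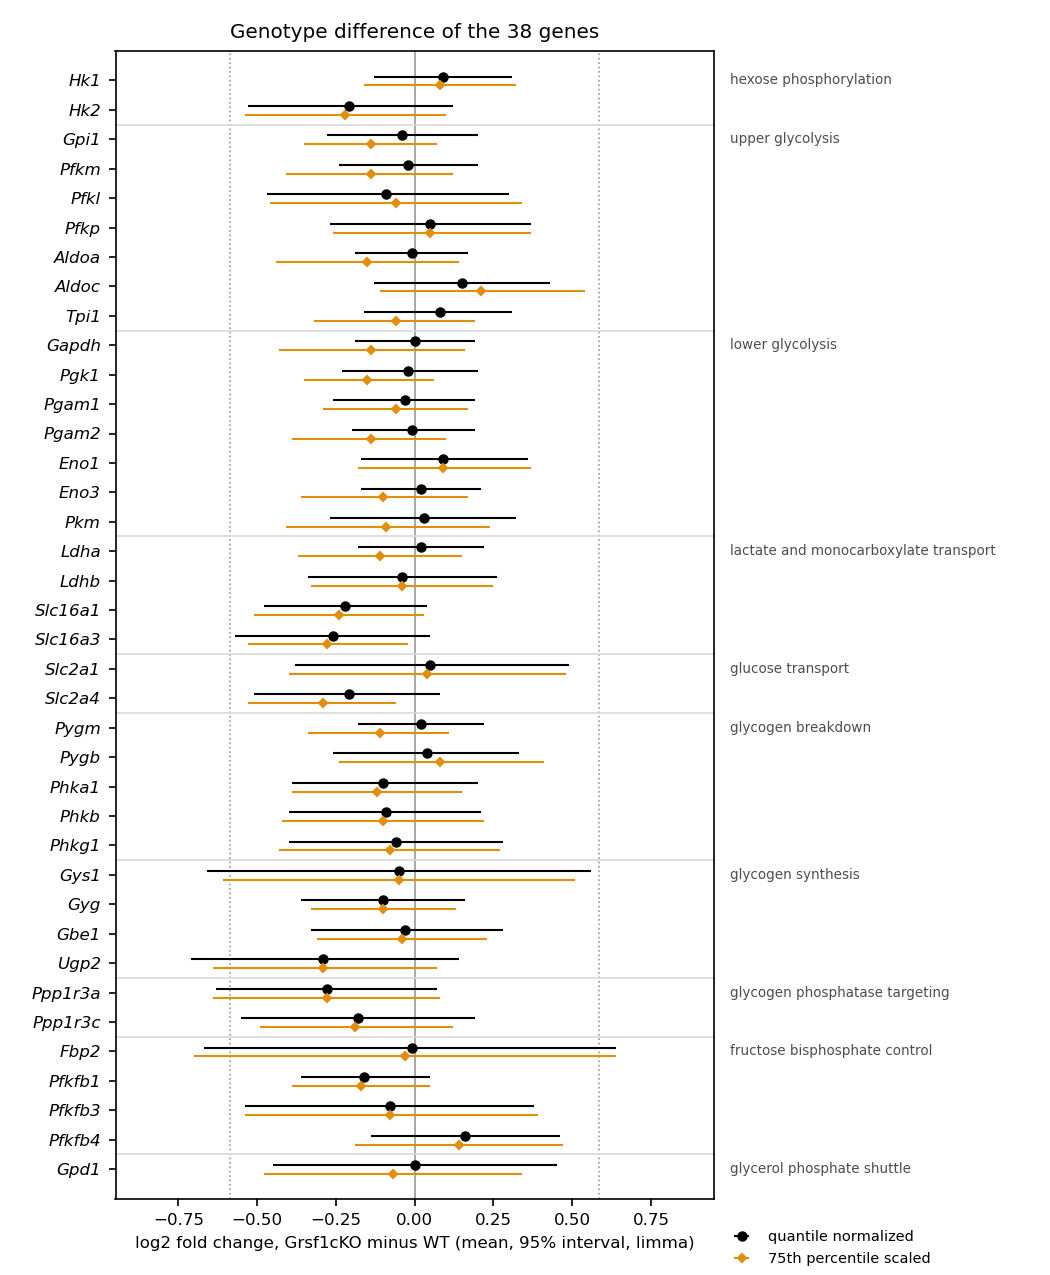
The log2 difference between Grsf1cKO and WT mice (horizontal axis) with its 95% interval by limma is drawn for the brightest probe of each of the 38 genes, grouped by role, after quantile normalization (black) and 75th percentile scaling (orange); dotted lines mark 1.5-fold. All points lie between -0.29 and 0.21, and the orange points of the brightest probes, such as *Aldoa* and *Gapdh*, lie to the left of the black ones.

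The count of genes whose 3 Grsf1cKO values all lay on one side of the 3 WT values was 2 of 38, both lower in Grsf1cKO mice, and 0 were higher. Over all probes, 6.27% were separated in this way toward lower and 3.08% toward higher values. The 2 genes were *Slc16a3* and *Pfkfb1*, named here after their values were seen. With 3 mice against 3, the smallest 2-sided exact permutation *p* is 0.1, and both genes reached it. After 75th percentile scaling, 6 genes were separated, all lower in Grsf1cKO mice: *Gpi1*, *Pgk1*, *Slc16a1*, *Slc16a3*, *Slc2a4* and *Pfkfb1*. Under that scaling 3.26% of all probes were separated toward lower values and 4.85% toward higher ones. The deposited *z*-scores separated 1 gene toward lower and 1 toward higher values, beside 5.77% and 1.96% of all probes. Slide 2 alone separated 4 and 2, beside 13.2% and 7.16% of all probes.

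Hexokinase is the entry to the pathway. *Hk2*, the hexokinase that predominates in muscle and responds to insulin, was 15.16, 14.93 and 14.89 in Grsf1cKO 1 to 3 and 15.41, 15.11 and 15.09 in WT 1 to 3. The highest Grsf1cKO mouse lay above 2 of the 3 WT mice, and the difference of -0.21 had an interval from -0.53 to 0.12. It was -0.22 with the slide as a term, -0.26 on slide 2 alone and, with 1 mouse left out, between -0.29 and -0.10, the smallest without WT 1. *Hk1*, the form found in most tissues, was 12.21, 12.13 and 12.31 in Grsf1cKO mice and 12.19, 12.12 and 12.07 in WT mice. Its genotypes overlapped too, and its difference was 0.09 with an interval from -0.13 to 0.31.

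In the upper steps of glycolysis, which carry glucose phosphate to triose phosphates, 0 of 7 genes were separated and the differences ran from -0.09 to 0.15. *Pfkm*, the muscle form of phosphofructokinase and the committed step, was 18.56, 18.53 and 18.39 in Grsf1cKO mice and 18.46, 18.53 and 18.55 in WT mice. *Pfkl*, named for liver, was 9.40, 9.20 and 9.44 in Grsf1cKO mice and 9.37, 9.72 and 9.20 in WT mice. *Pfkp*, named for platelets, was 10.53, 10.45 and 10.65 against 10.68, 10.51 and 10.27. The genotypes overlapped for all 3 subunits of the enzyme, with differences of -0.02, -0.09 and 0.05.

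*Aldoa*, the aldolase of muscle, could not be resolved by quantile normalization: it had the same rank on 7 of the 8 arrays, and probes of equal rank receive equal values, so it stood at 19.08 in 5 of 6 mice and at 19.10 in WT 1. After 75th percentile scaling it was 18.85, 19.13 and 19.17 in Grsf1cKO 1 to 3 and 19.12, 19.24 and 19.22 in WT 1 to 3. Grsf1cKO 1 was the lowest mouse and the other Grsf1cKO mice overlapped with WT 1, with a difference of -0.15 and an interval from -0.44 to 0.14. *Aldoc*, the aldolase of brain, was 8.30, 8.24 and 8.06 in Grsf1cKO mice and 8.12, 8.13 and 7.89 in WT mice on the quantile scale. Its difference was 0.15, and 0.07 without WT 3, and a dimmer probe of *Aldoc* gave 0.21, but Grsf1cKO 3 lay below WT 1 and WT 2. *Gpi1*, which turns glucose phosphate into fructose phosphate, and *Tpi1*, which interconverts the triose phosphates, differed by -0.04 and 0.08. With 75th percentile scaling they differed by -0.14, without overlap, and by -0.06.

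The lower steps, from triose phosphate to pyruvate, had differences from -0.03 to 0.09, and 0 of 7 genes were separated. *Gapdh*, the dehydrogenase of this segment, is also the transcript to which the study normalized its RT-qPCR. It was 18.81, 18.78 and 18.78 in Grsf1cKO mice and 18.75, 18.81 and 18.81 in WT mice. All 6 of its probes lay between -0.01 and 0.02, and the brightest had an interval from -0.19 to 0.19. After 75th percentile scaling the same probe was 18.61, 18.79 and 18.86 in Grsf1cKO mice and 18.73, 18.97 and 18.98 in WT mice, a difference of -0.14 with an interval from -0.43 to 0.16. Under this scaling the genotypes overlapped as well, with Grsf1cKO 1 the lowest mouse.

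*Pgam2*, the muscle form of phosphoglycerate mutase, was 18.32, 18.27 and 18.28 in Grsf1cKO mice and 18.33, 18.23 and 18.33 in WT mice. *Pgam1*, its widely expressed relative, was 12.90, 12.99 and 12.97 against 13.08, 13.01 and 12.87. Both differed by less than the spread between mice, by -0.01 and -0.03. *Eno3*, the enolase of muscle, was 18.52, 18.48 and 18.53 in Grsf1cKO mice and 18.52, 18.44 and 18.50 in WT mice. *Eno1*, the enolase of most tissues, was 15.47, 15.52 and 15.60 against 15.34, 15.62 and 15.36. Their differences were 0.02 and 0.09, and a dimmer probe of *Eno1* gave 0.37 with an interval from -0.07 to 0.80, the highest value of the 63 probes, with overlapping genotypes. *Pgk1*, which makes the first ATP of the pathway, and *Pkm*, pyruvate kinase, differed by -0.02 and 0.03 after quantile normalization and by -0.15 and -0.09 after 75th percentile scaling.

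Bright probes outside the pathway shifted between the scalings too. With signals scaled to the 75th percentile, the mean of the 10 fast fiber genes was -0.27 in Grsf1cKO 1 relative to WT mice, and the mean of the 10 muscle-defining genes was -0.20. The 7 genes of lower glycolysis were at -0.18 in the same mouse, against -0.05 and -0.02 in Grsf1cKO 2 and 3. WT 1 was low as well, at -0.10 for fast fiber, -0.09 for muscle-defining and -0.06 for lower glycolysis genes. Both arrays of Grsf1cKO 1 showed it, with lower glycolysis at -0.20 on the first and -0.15 on the repeat. The part of this mouse's bright signals in the lower medians after 75th percentile scaling was not tested beyond these values.

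Pyruvate made in excess is reduced to lactate and leaves the fiber through monocarboxylate carriers. *Ldha*, the subunit that favors lactate formation, was 18.35, 18.31 and 18.37 in Grsf1cKO mice and 18.39, 18.31 and 18.27 in WT mice. *Ldhb*, the subunit of oxidative tissues, was 16.40, 16.57 and 16.58 against 16.61, 16.70 and 16.36. Neither was separated, with differences of 0.02 and -0.04, and -0.11 for *Ldha* after 75th percentile scaling.

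The carriers had lower means in Grsf1cKO mice. *Slc16a3*, which encodes MCT4, the carrier through which glycolytic fibers export lactate, was 16.54, 16.47 and 16.16 in Grsf1cKO 1 to 3 and 16.66, 16.72 and 16.57 in WT 1 to 3. The 3 Grsf1cKO values all lay under the WT values, by as little as 0.03 between Grsf1cKO 1 and WT 3, and Grsf1cKO 3 was the lowest. The difference was -0.26 (interval -0.57 to 0.05, limma adjusted *p* = 0.996), -0.23 with the slide as a term, -0.23 on slide 2 alone and -0.14 without Grsf1cKO 3. *Slc16a1*, which encodes MCT1, the carrier of oxidative fibers, was 12.82, 12.69 and 12.86 in Grsf1cKO mice and 13.12, 13.04 and 12.86 in WT mice. Grsf1cKO 3 and WT 3 were level at this rounding and the others were apart, with a difference of -0.22 and an interval from -0.48 to 0.04. The difference of *Slc16a1* was -0.16 with the slide as a term and -0.17 on slide 2 alone. In whole muscle, fewer fibers of a type and less RNA per fiber cannot be told apart. *Bsg*, the partner protein that both carriers need at the membrane, differed by -0.01.

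The promoters of both carriers are shown beside that of *Ldha*, since the 3 genes share the letters of the hypoxia response core, ACGTG. The sequences are the 250 bases before the RefSeq start in GRCm38.p6, with ACGTG on either strand in capitals; CACGTG, the core of the carbohydrate response element, contains it on both strands. All 3 genes lie on the plus strand, at chr11:120948817-120949066, chr3:104638414-104638663 and chr7:46845554-46845803.
Slc16a3: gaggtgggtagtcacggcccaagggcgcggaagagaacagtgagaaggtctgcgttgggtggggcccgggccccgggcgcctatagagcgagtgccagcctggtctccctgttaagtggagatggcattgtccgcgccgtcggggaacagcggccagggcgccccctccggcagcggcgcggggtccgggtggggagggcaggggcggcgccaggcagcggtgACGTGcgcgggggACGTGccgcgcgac
Slc16a1: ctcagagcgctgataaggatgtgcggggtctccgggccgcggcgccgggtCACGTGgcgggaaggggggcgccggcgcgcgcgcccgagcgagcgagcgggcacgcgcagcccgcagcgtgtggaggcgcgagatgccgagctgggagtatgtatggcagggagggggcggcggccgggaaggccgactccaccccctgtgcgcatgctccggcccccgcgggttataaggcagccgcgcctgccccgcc
Ldha: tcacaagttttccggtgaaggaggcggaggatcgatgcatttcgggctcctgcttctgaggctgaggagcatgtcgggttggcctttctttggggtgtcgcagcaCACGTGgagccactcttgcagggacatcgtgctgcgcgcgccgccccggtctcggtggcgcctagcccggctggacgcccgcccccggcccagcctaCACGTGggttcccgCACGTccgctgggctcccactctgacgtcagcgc

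Promoter windows were given for 36 of the 38 genes, 52 windows in all; *Gpd1* and *Slc2a4* were not among them. ACGTG was found in 19 of these 52 windows (36.5%), belonging to 16 genes, and in 16.6% of all 32851 windows of the same length. CACGTG was found in 6 of the 52 windows (11.5%) and in 6.02% of all windows. A match describes the letters in a window and was not tied to binding of any factor here.

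Among the glucose carriers, *Slc2a4*, which encodes GLUT4, was 17.36, 17.11 and 17.03 in Grsf1cKO 1 to 3 and 17.42, 17.46 and 17.26 in WT 1 to 3. Grsf1cKO 1 lay above WT 3 and the other Grsf1cKO mice lay below all WT mice. The difference was -0.21 with an interval from -0.51 to 0.08, and -0.18 both with the slide as a term and on slide 2 alone. Scaled to the 75th percentile, the values were 17.27, 17.05 and 17.10 against 17.42, 17.48 and 17.40, which separates the genotypes, with a difference of -0.29 (interval -0.53 to -0.06) and a limma adjusted *p* of 0.997. *Slc2a1*, which encodes GLUT1, the carrier of basal uptake and of many other cell types, was 12.55, 12.02 and 12.43 in Grsf1cKO mice and 12.43, 12.36 and 12.04 in WT mice. Its genotypes overlapped fully, with a difference of 0.05.

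**Figure D2:**
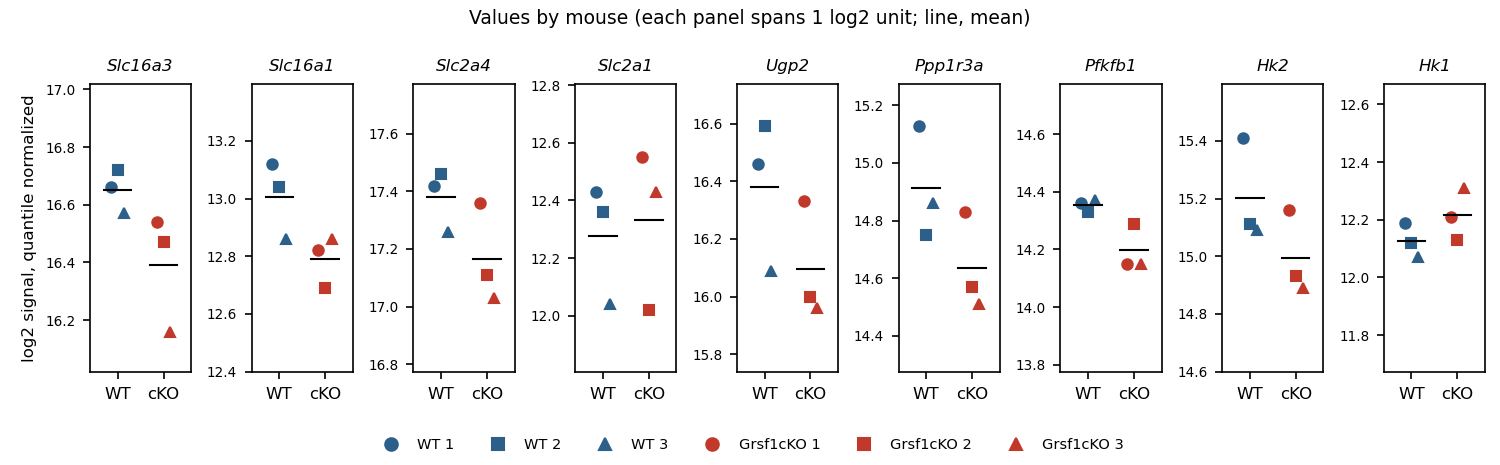
The log2 quantile normalized signal (vertical axes, each spanning 1 log2 unit) of 9 genes is drawn for each of the 3 WT (blue) and 3 Grsf1cKO mice (red), with a line at each mean. Only *Slc16a3* and *Pfkfb1* of these genes have no overlap between genotypes, and *Slc2a4* and *Ugp2* overlap through Grsf1cKO 1 and WT 3.

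Glycogen breakdown starts with phosphorylase. *Pygm*, its muscle form, was 18.57, 18.55 and 18.44 in Grsf1cKO mice and 18.54, 18.50 and 18.46 in WT mice, a difference of 0.02. A dimmer probe of *Pygm* gave -0.12, so its probes differed in sign, and the brighter one gave -0.11 after 75th percentile scaling. *Pygb*, the brain form, was 8.66, 8.87 and 8.53 in Grsf1cKO mice and 8.53, 8.73 and 8.68 in WT mice, a difference of 0.04. No genotype was separated for either form. Of the subunits of phosphorylase kinase, which switches phosphorylase on, the regulatory *Phka1* and *Phkb* and the catalytic *Phkg1* differed by -0.10, -0.09 and -0.06. All 3 were lowest in Grsf1cKO 3, at 16.42, 14.88 and 15.02, and without that mouse the differences were 0.00, 0.00 and 0.08.

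For glycogen synthesis, *Ugp2*, which makes the UDP-glucose that glycogen synthase adds to the chain, had the largest difference of the 38 genes with genotype as the only term. It was 16.33, 16.00 and 15.96 in Grsf1cKO 1 to 3 and 16.46, 16.59 and 16.09 in WT 1 to 3. Grsf1cKO 1 lay above WT 3, and the difference of -0.29 had an interval from -0.71 to 0.14. It was -0.18 with the slide as a term and -0.16 on slide 2 alone, where *Ppp1r3a* differed more, by -0.27 and -0.34. The difference of *Ugp2* was -0.22 without Grsf1cKO 3 and -0.43 without WT 3. *Gys1*, the muscle glycogen synthase, *Gyg*, the glycogenin that primes the chain, and *Gbe1*, the branching enzyme, differed by -0.05, -0.10 and -0.03. *Gys1* varied widely within both genotypes, with a highest value of 16.33 in WT 2 and lowest values of 15.51 in WT 3 and Grsf1cKO 1, and its interval ran from -0.66 to 0.56.

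*Ppp1r3a* and *Ppp1r3c* encode subunits that bring protein phosphatase to glycogen, where it activates glycogen synthase and turns phosphorylase off. *Ppp1r3a*, the form of striated muscle, was 14.83, 14.57 and 14.51 in Grsf1cKO mice and 15.13, 14.75 and 14.86 in WT mice. *Ppp1r3c* was 15.70, 15.92 and 15.49 against 16.04, 15.91 and 15.70. In *Ppp1r3a* Grsf1cKO 1 lay above WT 2, and in *Ppp1r3c* Grsf1cKO 2 lay above WT 2 and WT 3. Their differences were -0.28 (interval -0.63 to 0.07) and -0.18 (interval -0.55 to 0.19), and with 1 mouse left out they lay between -0.38 and -0.17 and between -0.29 and -0.07. With the slide as a term they were -0.27 and -0.16, and on slide 2 alone -0.34 and -0.17.

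The bifunctional enzymes encoded by the *Pfkfb* genes make and remove the fructose bisphosphate that activates phosphofructokinase. *Pfkfb1*, the form of liver and muscle, was 14.15, 14.29 and 14.15 in Grsf1cKO 1 to 3 and 14.36, 14.33 and 14.37 in WT 1 to 3. The genotypes did not overlap, and a dimmer probe of the gene was also separated, at 10.51, 10.58 and 10.50 against 10.80, 10.73 and 10.62. The differences of both probes were -0.16 (interval -0.36 to 0.05) and -0.19 (interval -0.40 to 0.03), and for the brighter probe -0.15 with the slide as a term and -0.16 on slide 2 alone. *Pfkfb4* was 13.68, 13.43 and 13.28 in Grsf1cKO mice and 13.36, 13.24 and 13.31 in WT mice. Grsf1cKO 1 was the highest mouse and Grsf1cKO 3 lay among the WT mice, with a difference of 0.16 that was 0.05 without Grsf1cKO 1 and 0.25 without Grsf1cKO 3. *Pfkfb3*, the form with the strongest kinase activity, had probes that differed in sign, at -0.08 and 0.15, and both were lowest in Grsf1cKO 3.

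*Fbp2*, the muscle fructose bisphosphatase, which runs the step backward toward glycogen, ranged from 11.20 to 11.61 in Grsf1cKO mice and from 10.97 to 11.92 in WT mice, a difference of -0.01 whose interval ran from -0.67 to 0.64. WT 2 was the lowest mouse and WT 3 the highest, so the WT mice spanned the Grsf1cKO mice. *Gpd1*, which passes electrons from glycolysis to the glycerol phosphate shuttle of mitochondria, was 17.39, 17.30 and 16.81 in Grsf1cKO mice and 17.30, 16.97 and 17.23 in WT mice. Grsf1cKO 3 was the lowest mouse, the difference was 0.00, and without that mouse it was 0.17.

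Muscle isoforms were set beside the other isoforms of the same step by taking the difference of their log2 signals within each mouse and subtracting the WT mean of that difference. For *Hk2* less *Hk1* this gave -0.12, -0.27 and -0.50 in Grsf1cKO 1 to 3 and 0.14, -0.09 and -0.06 in WT 1 to 3. All Grsf1cKO mice were lower, after 75th percentile scaling too, with a mean of -0.30 under both scalings, but the nearest mice of the genotypes were only 0.03 and 0.01 apart. Of the other 8 pairs, 0 were separated after quantile normalization. After 75th percentile scaling *Eno3* less *Eno1* was separated, at -0.24, -0.13 and -0.20 in Grsf1cKO mice and 0.02, -0.10 and 0.08 in WT mice. *Slc2a4* less *Slc2a1* was -0.29, -0.01 and -0.51 against -0.11, 0.00 and 0.12 on the quantile scale, so Grsf1cKO 2 lay among the WT mice. These pairs show only unequal change within a mouse, and no pair was tested.

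**Figure D3:**
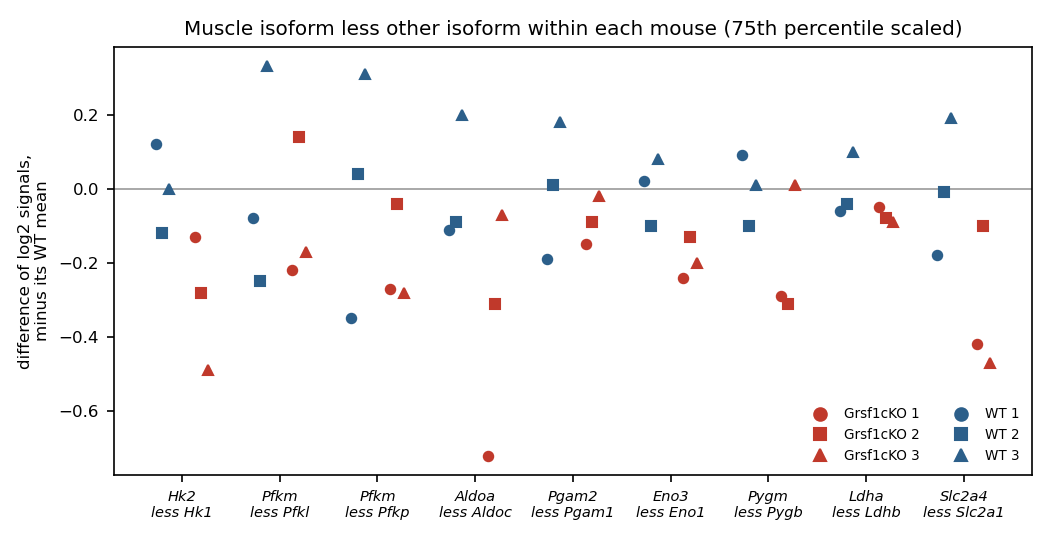
For 9 pairs of isoforms, the vertical axis gives the log2 signal of the muscle isoform less that of the other isoform in each mouse, minus the WT mean, after 75th percentile scaling (WT blue, Grsf1cKO red). Only *Hk2* less *Hk1* and *Eno3* less *Eno1* have all Grsf1cKO mice below all WT mice, and *Aldoa* less *Aldoc* has its lowest point, -0.72, in Grsf1cKO 1.

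The mice differed among themselves along the pathway. Grsf1cKO 3 was the lowest of the 3 Grsf1cKO mice in 24 of 38 genes and the lowest of all 6 mice in 18, of which 14 are among the 22 genes outside the chain from hexokinase to pyruvate kinase. WT 3 was the lowest WT mouse in 20 genes and the lowest of all in 10. Over all probes tested, Grsf1cKO 3 was the lowest of its genotype in 35.1% and of all mice in 19.3%, and WT 3 in 31.2% and 13.7%. The mean of those 22 genes relative to WT mice was 0.01, -0.05 and -0.21 in Grsf1cKO 1 to 3, and 0.04, 0.01 and -0.05 in WT 1 to 3. The mean of the 16 enzymes of the chain was 0.04, -0.01 and -0.02 in Grsf1cKO mice and 0.04, 0.02 and -0.06 in WT mice. After 75th percentile scaling the first set of means was -0.05, -0.09 and -0.18 in Grsf1cKO mice against 0.01, -0.03 and 0.02 in WT mice, and the second was -0.10, -0.06 and -0.03 against -0.02, 0.04 and -0.02. Both sets separate the genotypes only under this scaling, and both by narrow margins. The mean of all 38 genes also did so only there, at -0.07, -0.08 and -0.12 against 0.00, 0.00 and 0.00. So did lactate and monocarboxylate transport (4 genes), at -0.21, -0.18 and -0.12 against 0.02, 0.04 and -0.06. The 2 phosphatase targeting genes were separated under both scalings, on the quantile scale at -0.13, -0.15 and -0.40 against 0.19, -0.07 and -0.12. The other roles overlapped under both.

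Grsf1cKO 3 also stood apart in genes of slow fibers and macrophages. Of 8 slow fiber genes, all well above background in 6 mice, 7 were highest in Grsf1cKO 3, and their mean was 1.13 there against values from -0.45 to 0.27 in the other 5 mice. *Tnni1*, the slow troponin I, was 14.33 in Grsf1cKO 3 and 10.35 to 11.21 in the others. *Myh7*, the defining slow myosin, was the exception at 9.39 in Grsf1cKO 3, and *Myl3*, the brightest probe of the list, ranged only from 17.66 to 17.80. The mean of 10 fast fiber genes lay between -0.01 and 0.04 in all mice on the quantile scale. Without overlap, *Myh2* was higher by 0.19 and *Myh4* lower by 0.05 in Grsf1cKO mice, and the other 8 genes overlapped. Over all probes, 3.08% were separated toward higher values and 6.27% toward lower ones. Of the slow fiber genes, *Myl2* was higher in all Grsf1cKO mice, at 13.46, 13.48 and 14.36 against 13.12, 13.23 and 13.04, by 0.63 (limma adjusted *p* = 0.996) and, without Grsf1cKO 3, by 0.34. Of 8 macrophage genes, also all well above background, 8 were highest in Grsf1cKO 3, with a mean of 0.98 against -0.16 to 0.19 elsewhere, and *Cd68* was 13.30 there and 11.57 to 11.96 in the others. *Csf1r*, the brightest probe of that list, was 14.19 in Grsf1cKO 3 and 13.42 to 13.72 in the others.

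Other lists moved with other mice. WT 3 had the lowest means of 8 adipocyte genes (-0.68) and 5 erythroid genes (-0.61). Grsf1cKO 3 had the highest mean of 6 fibroblast genes (0.43, against -0.13 to 0.20), and 4 of these 6 were highest there. The exceptions were *Dcn*, the brightest probe of that list, at 17.77 against 17.73 to 17.89 in the others, and *Pdgfra*, at 12.28 against 12.14 to 12.38. Endothelial, nerve and smooth muscle means lay between -0.17 and 0.17 in all mice. Without Grsf1cKO 3 the median difference of the 38 genes was 0.00 and 16 of them were below 0, against 25 with all mice. Scaling alone moved that count too, to 14 in the deposited *z*-scores and to 31 after 75th percentile scaling. The part of slow fibers, macrophages or other cells in the differences of single genes was not tested beyond these values.

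**Figure D4:**
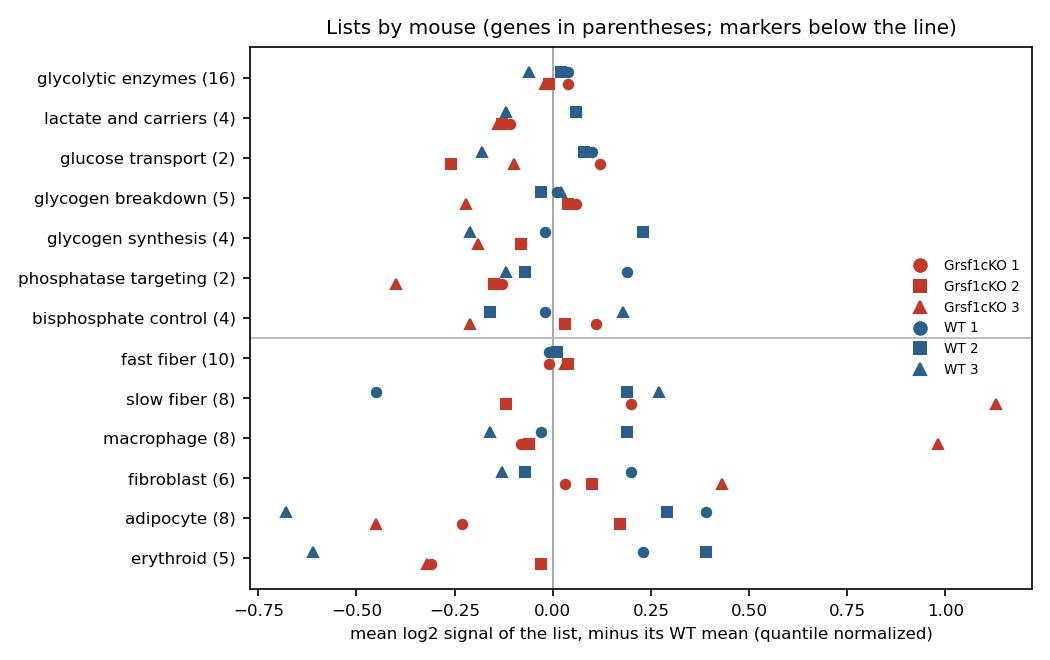
The horizontal axis gives the mean log2 quantile normalized signal of each list in each mouse, minus the WT mean, with the roles of the 38 genes above the line and the marker lists below it (WT blue, Grsf1cKO red). Grsf1cKO 3 (red triangle) lies at 1.13 for slow fiber and 0.98 for macrophage genes, and at -0.40 for the 2 phosphatase targeting genes.

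The other genes of the pathway were a separate list of 60 genes, of which 55 were tested; the other 5 were well above background in 0 of 6 mice. Of their 101 probes 92 were tested, and none of these passed the criteria. At an unadjusted limma *p* under 0.05, 4 of 55 genes were lower in Grsf1cKO mice by their brightest probe and 0 were higher, and their adjusted *p* was 0.996. Over the 92 probes, 6 were lower and 2 higher at that level, beside the 2.96% and 1.29% of all probes given above. Their median difference was -0.02 after quantile normalization and -0.04 after 75th percentile scaling. Leaving out Grsf1cKO 2 or Grsf1cKO 3 brought the count of 4 to 1, leaving out Grsf1cKO 1, WT 1 or WT 2 brought it to 2, and leaving out WT 3 kept it at 4.

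*Tbc1d4* encodes AS160, which holds GLUT4 vesicles inside the cell until insulin signaling releases them. It was 11.34, 11.45 and 11.39 in Grsf1cKO 1 to 3 and 11.55, 11.79 and 11.66 in WT 1 to 3. The genotypes did not overlap, with a difference of -0.27 (interval -0.51 to -0.03), and its 2 dimmer probes both gave -0.25, with overlap in 1 of them. *Slc2a12*, which encodes another glucose carrier of muscle and fat, was 10.86, 10.78 and 10.73 against 11.15, 11.00 and 10.97. Its difference was -0.25, with no overlap, and -0.26 after 75th percentile scaling. A probe well above background in only 5 of 6 mice gave -0.44 without overlap, but -0.26 with overlap under that scaling. *Tbc1d1*, a relative of *Tbc1d4*, differed by -0.15 with overlapping genotypes, and its dimmer probe gave 0.06, also with overlap.

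*Mlxipl* encodes ChREBP, a transcription factor that responds to glucose phosphates. It was 14.30, 14.39 and 14.21 in Grsf1cKO mice and 14.73, 14.66 and 14.51 in WT mice, a difference of -0.33 with no overlap (interval -0.58 to -0.08), but a dimmer probe of the gene gave -0.04 with overlap.

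By their brightest probes, 8 of the 55 genes were separated by genotype toward lower values and 1 toward higher ones, beside 6.27% and 3.08% of all probes. Of these 9 genes, 5 did not reach an unadjusted limma *p* of 0.05 with that probe. *Phka2*, the liver form of the phosphorylase kinase regulatory subunit, was higher in Grsf1cKO mice by 0.21, and its dimmer probes gave 0.28, which is 1 of the 2 higher probes counted above, and, with overlap, 0.22. *Ppp1r3b*, another glycogen-targeting subunit, *Tigar*, which removes the activator of phosphofructokinase, *Got1*, of the malate-aspartate shuttle, and *Esrra*, a nuclear receptor of oxidative metabolism, were lower by 0.20, 0.23, 0.17 and 0.18. These 5 genes were picked out after their values were seen.

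Where a gene had several probes, they were compared. Of the 38 genes, 19 had more than 1 probe, and in 8 of these the probes differed in sign, by at most 0.23. For *Gpi1*, *Gyg*, *Gbe1* and *Pfkfb1* all probes were below 0, and for *Aldoc*, *Eno1*, *Ldha*, *Pkm*, *Pfkp*, *Pygb* and *Pfkfb4* all were above 0. The repeat arrays gave the measurement error of the members: between the arrays of WT 1 the median absolute difference over the 38 genes was 0.03 and the highest 0.15, and between those of Grsf1cKO 1 they were 0.02 and 0.16. The spread between mice of a genotype was wider for these genes, with a median SD of 0.142. Dimmer probes of the same genes repeated less well, with differences of up to -1.10 for *Pfkfb4* and 0.69 for *Pygb* in Grsf1cKO 1. Over all probes well above background in 6 mice, the SD of the difference between repeats was 0.208 for WT 1 and 0.57 for Grsf1cKO 1.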

How the data were processed

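Muscle RNA of 6 separate mice was measured on 8 arrays. The authors deposited, for each array, Agilent Feature Extraction output (version 12.0.3.1), with background-corrected spot intensities on a linear scale and other columns such as detection flags, and a second table. Its score values were deposited by the authors as *z*-scores, which the paper says were made from quantile normalized, log2-transformed signals. The values match, within 0.005, the log2 processed signal of each array centered and divided by its own SD, and their medians differ between arrays (-0.24 to -0.16). They were used only as an alternative.

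For this report, control spots were dropped, nonuniform and population outlier spots were set to missing, and the processed intensities were quantile normalized over 8 arrays, as the methods state, and averaged per probe and per mouse. A probe was tested when well above background in at least 3 of 6 mice, with limma 3.58.1 in R 4.3.3 and genotype as the only term. Of 56605 probes, 32994 were named by accession through a RefSeq table of GRCm38.p6. Slide 1 held the first arrays of WT 1 and WT 2 and slide 2 all others, so the slide was also fitted as a term. Per array, 66.3% to 88.9% of probes were well above background, the highest on the repeat of Grsf1cKO 1.

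The genes and lists were chosen with earlier results of these data known. Values by mouse are given for the 8 genes with the largest differences, the isoform pairs, *Gapdh*, and genes that a mouse or the lack of overlap set apart once values were seen; of the other pathway genes, not all of those at an unadjusted limma *p* under 0.05 are named, and a few more are named as said in the text. Alternatives were another scaling, background correction, filter, choice of arrays, slide, intensity trend, replicate block, the methods' *z*-test, the mean over probes, and each mouse left out. Promoter sequences came from RefSeq, GRCm38.p6.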

Additional observations from a re-analysis of the deposited data

How the results depend on the processing

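Under each of the 19 alternatives that give a fold change for a single gene, no member gene passed the criteria. Of the 722 values of the 38 genes, 696 moved by less than 1 SD between mice and 26 by more, 0 exceeded 1.5-fold, and the largest size was 0.43. *Slc16a3* ranged from -0.33 to -0.14, *Slc2a4* from -0.31 to -0.12, *Ugp2* from -0.43 to -0.16 and *Pfkfb1* from -0.20 to -0.13.

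The count of member genes at an unadjusted limma *p* under 0.05 was 0, and became 2 with 75th percentile scaling (*Slc16a3* and *Slc2a4*), 1 with normexp (*Slc2a4*), 5 with an intensity trend, 3 with the methods' *z*-test and, with a mouse left out, 0 to 2. Of all probes, 4.25% were under 0.05 by limma, 3.35% with 75th percentile scaling, 3.69% with normexp, 3.55% with the trend, 10.8% with the *z*-test and 4.21% to 5.48% with a mouse left out. The count of separated member genes was 2, and became 6 with 75th percentile scaling, 1 with normexp, 6 on slide 2 alone and 4 to 9 with a mouse left out. Of all probes, 9.35% were separated, 8.11% with 75th percentile scaling, 9.55% with normexp, 20.4% on slide 2 alone and 17.4% to 20.6% with a mouse left out, since separation is easier with fewer mice. The count of other pathway genes under 0.05 was 4, and became 5 with 75th percentile scaling, 6 with normexp, 2 with the deposited *z*-scores (3.99% of all probes), 2 on slide 2 alone (4.13%), 8 with the trend, 10 with the *z*-test and 1 to 4 with a mouse left out. The median of the member genes was -0.10 with 75th percentile scaling against -0.02, and -0.05 to 0.00 with a mouse left out. The cause was not tested where none is given.

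Same-numbered mice correlated at 0.232, 0.097 and 0.104 in their deviations from the group means. Mice of different numbers correlated at -0.185 to 0.094, below each same-numbered value. The main fit did not take the numbers as pairs, and whether they mark pairs was not tested further. With the replicate block, 1 member gene (*Ppp1r3a*) had an unadjusted *p* under 0.05, beside 6.20% of all probes, and 0 member probes passed the criteria. Signal over background limits only the dimmer probe of *Pfkfb4*, which was well above background in 5 of 6 mice.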
